A study of Mus musculus with 15 samples.

Results

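The RNA of Nop10 and of the other core protein genes of the small nucleolar ribonucleoproteins (snoRNPs) was followed in the kidneys of 15 male mice. The 7 genes were the box H/ACA core (Nop10, Nhp2, Gar1 and Dkc1) and the box C/D core (Fbl, Nop56 and Nop58), taken from the 33058 gene names in the deposited table. The list was chosen by name, and Nop10 headed it because its values had been seen to be lower at 12 months. The value of a gene was the sum of the FPKM (fragments counted per length of transcript and per mapped fragments of the library) of its annotated and assembled isoforms, 63 for the 7 genes. All 7 genes were above 0 in all 15 mice, so all of them passed the filter of a value above 0 in at least 1 mouse.

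The mice were males of the strain that the labels give as C57BL/6 and the study's methods as C57BL/6J, without a stated treatment, kept on standard chow. Each age group held 5 mice, and the ages were 3 months (mice 5 to 9), 12 months (mice 17 to 21) and 24 months (mice 31 to 35). Every sample title starts with 3M. The ages used here are those of the age labels, which the columns of values carry too. RNA of kidney tissue was sequenced in 1 library per mouse, so fewer cells of a type and less RNA per cell cannot be told apart. Aligned sequence was between 5.03 and 6.13 Gb at 3 months, 5.84 and 8.03 Gb at 12 months, and 6.07 and 7.33 Gb at 24 months. The labels give no batch. Any batch that follows age cannot be told apart from age.

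Markers of the proximal tubule (Lrp2, Slc34a1, Slc5a2 and Slc22a6) summed to between 1219 and 1770 FPKM in the 15 mice, so the defining markers of kidney were present. None of the kidney, leukocyte and proliferation markers examined was at 0 in all mice. The 4 leukocyte markers (Ptprc, Cd3e, Cd79a and Cd68) summed to between 1.31 and 5.14 FPKM at 3 months, 4.12 and 9.27 at 12 months, and 4.42 and 9.37 at 24 months. By an unadjusted p under 0.05, 2 of these 4 were higher at 12 months than at 3 months and 3 of 4 at 24 months than at 3 months. In each of these contrasts 11.4% of all genes were higher, a share that depended on the scaling, as given below. None of the 4 markers passed an adjusted p. Of the 4 proliferation markers, 2 were higher at 12 against 3 months at an unadjusted p, against the same 11.4% of all genes. The 4 summed to between 0.601 and 2.02 FPKM at 3 months, 1.71 and 3.46 at 12 months, and 1.23 and 3.82 at 24 months. The 2 principal cell markers of the collecting duct (Aqp2 and Scnn1g) summed to between 39.7 and 148 FPKM at 3 months, 33.6 and 47.4 at 12 months, and 27.9 and 60.6 at 24 months, with medians of 71.0, 36.3 and 43.8. Aqp2 was lower at 12 against 3 months by an unadjusted p (log2 difference -1.17, limma adjusted p = 0.191) and Scnn1g was not. The part of these cells in the values of the 7 genes was not tested.

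A snoRNP is a protein complex built on a small nucleolar RNA, which guides it by base pairing to a position in another RNA. Box H/ACA complexes change uridine to pseudouridine in ribosomal and spliceosomal RNA, and box C/D complexes add a methyl group to the ribose. Dkc1 (dyskerin) is the pseudouridine synthase, Nop10 and Nhp2 bind beside it, and Gar1 joins the mature particle. The same 4 proteins bind the RNA of telomerase, and mutations of dyskerin, NOP10 and NHP2 cause dyskeratosis congenita in people. Fbl (fibrillarin) is the methyltransferase of the box C/D particle, in which Nop56 and Nop58 form the scaffold.

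Nop10 is a very small gene. In the annotation of GRCm38 it lies on the forward strand at chr2:112261926-112263269, with 2 exons, an intron of 235 bases and a transcript of 1109 bases (ENSMUST00000028553). The coding part at chr2:112262024-112262453 has 64 codons before the stop and takes up 195 bases of the transcript with the stop codon. The 3′ UTR has 816 bases, most of the transcript. The RefSeq model of Nop10 starts at the same base and ends 371 bases earlier. The coding sequence is shown because it is the identity of the gene that the values turn on, with the start and stop codons in capitals:
Nop10 coding sequence: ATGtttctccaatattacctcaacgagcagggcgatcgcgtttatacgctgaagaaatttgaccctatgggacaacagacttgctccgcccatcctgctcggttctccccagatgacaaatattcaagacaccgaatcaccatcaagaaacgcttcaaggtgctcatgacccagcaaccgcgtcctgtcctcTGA

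Nop56 and Nop58 also host guide RNAs. Snord110 lies in intron 3 of Nop56 (chr2:130275506-130275573), Gm24451 in intron 5 of Nop56 (chr2:130276237-130276369), Snord70 in intron 2 of Nop58 (chr1:59691934-59692020) and Snord11 in intron 9 of Nop58 (chr1:59704790-59704873), all on the host's strand. They are shown because they carry the boxes that name the complexes. Capitals mark the first TGATG, as in the C box, and the last CTGA, as in the D box, and in Gm24451 the ACA that stands 3 bases before the end, read on the transcript's strand only:
Snord110: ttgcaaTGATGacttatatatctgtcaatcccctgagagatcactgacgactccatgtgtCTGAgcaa
Snord70: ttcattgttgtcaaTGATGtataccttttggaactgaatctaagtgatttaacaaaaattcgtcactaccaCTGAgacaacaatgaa
Snord11: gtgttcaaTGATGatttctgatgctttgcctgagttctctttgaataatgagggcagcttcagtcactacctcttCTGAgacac
Gm24451: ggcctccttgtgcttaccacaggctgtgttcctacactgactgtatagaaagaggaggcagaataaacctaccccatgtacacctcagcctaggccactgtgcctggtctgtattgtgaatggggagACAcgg

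TGATG followed by CTGA was found in 364 of 454 annotated snoRNAs of 60 to 100 bases (80.2%), and an ACA at that place in 216 of 866 of 120 to 150 bases (24.9%). These letters are a description of the sequences and no test of binding. The 4 intronic RNAs were almost not measured in these libraries. Snord110 was listed at 0 in 8 of 15 mice, Snord11 in 10, Snord70 in 14 and Gm24451 in 14, and the highest value of any of them was 0.819 FPKM (Snord110, at 24 months).

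Nop10 was the most abundant of the 7 genes at 3 months and among the least abundant at 12 months. At 3 months, the FPKM was 9.07, 15.8, 11.3, 7.74 and 12.2 in mice 5 to 9. At 12 months, it was 2.82, 2.68, 1.91, 2.66 and 2.16 in mice 17 to 21. The lowest 3-month-old mouse was above the highest 12-month-old mouse, and the 12-month-old mice lay close together. The mean was 11.2 ± 3.11 (SD, n = 5) at 3 months and 2.45 ± 0.391 (SD, n = 5) at 12 months, a ratio of 4.58. On the log2(FPKM + 1) scale, the difference of 12 against 3 months was -1.80. Nop10 was selected on this contrast, so the difference is a description without a test. For orientation, 21 of 13443 genes with a mean of at least 1 FPKM had a lower log2 difference than Nop10 in that contrast. Nop10 was chosen on these same values, so a place near the end follows from the choice and is no support.

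The 24-month-old mice were not alike. Nop10 was 1.73, 2.49, 1.49, 6.76 and 7.47 FPKM in mice 31 to 35. Mice 31 and 33 lay below every 12-month-old mouse and mouse 32 among them, while mice 34 and 35 lay above all 12-month-old mice and just below the lowest 3-month-old mouse. Of the leukocyte markers, only Cd3e of T cells parted the same mice. It was 2.15, 1.9 and 1.86 FPKM in mice 31 to 33 and 0.575 and 0.850 in mice 34 and 35. It was between 0.254 and 1.21 at 3 months and between 1.21 and 1.56 at 12 months. In mice 31 to 35, Ptprc was 5.87, 4.74, 4.23, 3.24 and 5.14 FPKM. In the same order, Cd79a was 0.427, 0.222, 0.677, 0.511 and 0.770 and Cd68 was 0.919, 0.0096, 0.0586, 0.0893 and 0.0890. All 4 leukocyte markers together summed to 9.37, 6.87, 6.83, 4.42 and 6.85 FPKM in mice 31 to 35, and the 2 principal cell markers to 38.1, 43.8, 60.6, 27.9 and 47.7. The part of these cells in Nop10 was not tested. The mean of Nop10 was 3.99 ± 2.89 (SD, n = 5). The ranges of 24 and 12 months overlapped, with a log2 difference of 0.34 that again is a description.

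The 24-month-old kidneys had less Nop10 than the 3-month-old kidneys in all 5 mice, but the difference did not pass the test across all genes. The means differed by a ratio of 2.81, and the log2 difference was -1.45 (SE 0.38, 95% interval -2.29 to -0.61). By limma, the unadjusted p was 0.0034 and the Benjamini-Hochberg adjusted p over all genes 0.103. The exact 2-sided permutation test over the mice gave p = 0.00794, the smallest value that the assignments of 10 mice to the ages allow. This contrast shares the 3-month-old mice with the contrast on which Nop10 was noted, so it is no independent support. Under every alternative fitted to these 10 mice or fewer, the adjusted p was between 0.066 and 0.189, with a log2 difference between -1.73 and -1.25. The adjusted p was 0.0374 when all 15 mice shared 1 estimate of the spread. That estimate takes in the 12-month-old mice, on whose values Nop10 was chosen (SD 0.391 FPKM), so this value is no independent call.

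**Figure D1:**
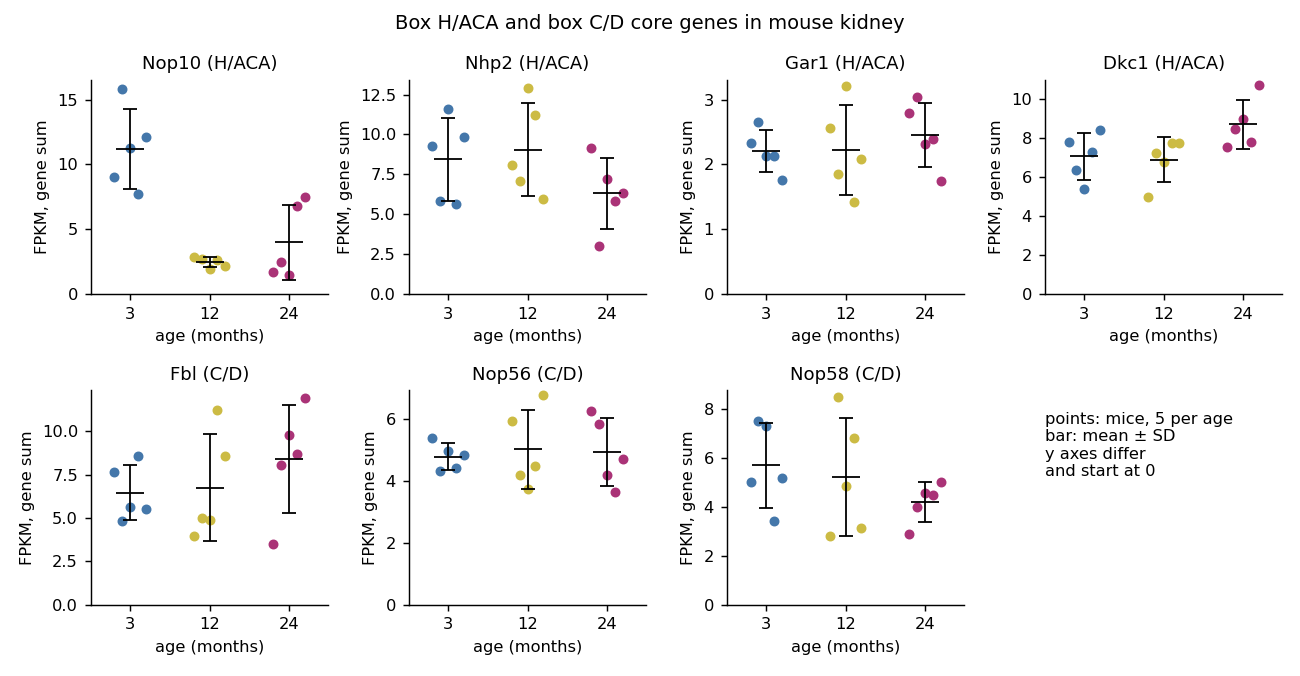
Summed FPKM of each of the 7 genes (y axis, starting at 0, on a scale of its own in each panel) by age in months (x axis). Points are single mice, 5 per age, and bars show the mean ± SD; Nop10 at 12 and 24 months lies below the 3-month-old mice in all 10 mice, while the ages overlap in the other 6 genes.

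Nhp2 is the partner of Nop10 that binds the guide RNA. At 3 months, it was 9.29, 5.82, 11.6, 5.66 and 9.87 FPKM in mice 5 to 9. It was 8.11, 7.06, 12.9, 11.2 and 5.94 at 12 months in mice 17 to 21, and 9.14, 3.01, 7.24, 5.86 and 6.33 at 24 months in mice 31 to 35. The ages overlapped, and mouse 32 was the lowest of all. The log2 difference was 0.09 (95% interval -0.46 to 0.63) at 12 against 3 months and -0.38 (95% interval -0.99 to 0.22) at 24 against 3 months, with limma adjusted p of 0.884 and 0.56. At 24 against 12 months, it was -0.47 (95% interval -1.08 to 0.13, limma adjusted p = 0.82). These intervals do not exclude differences of moderate size.

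Gar1, which replaces the assembly factor Naf1 when the particle matures, was the least abundant of the 7 genes by its mean at each age. It was 2.34, 2.65, 2.12, 2.13 and 1.77 FPKM at 3 months (mice 5 to 9) and 2.56, 1.85, 3.22, 1.42 and 2.08 at 12 months (mice 17 to 21). At 24 months, it was 2.79, 3.04, 2.32, 2.4 and 1.74 (mice 31 to 35). The ages overlapped throughout. The log2 differences were between -0.01 (12 against 3 months) and 0.11 (24 against 12 months), and the lowest limma adjusted p was 0.716. They depended on the isoforms summed. With annotated isoforms only, they were -0.47 at 12 against 3 months (limma unadjusted p = 0.0676) and 0.48 at 24 against 12 months (limma unadjusted p = 0.101).

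Dkc1, the enzyme of the complex, was the only one of the other 6 genes with an unadjusted p under 0.05 in any contrast. It was 7.82, 6.38, 5.38, 7.26 and 8.42 FPKM at 3 months, 4.98, 7.21, 6.76, 7.74 and 7.76 at 12 months, and 7.54, 8.45, 8.96, 7.81 and 10.7 at 24 months, in the order of the mice given above. Mouse 35 was the highest and mouse 17 the lowest. At 24 against 12 months the log2 difference was 0.30 (SE 0.13, 95% interval 0.02 to 0.58). By limma, p was 0.0387 before and 0.755 after adjustment, and the exact permutation test gave p = 0.0317. At 24 against 3 months the log2 difference was 0.27 (95% interval -0.01 to 0.55, limma adjusted p = 0.351). At 12 against 3 months it was -0.03 (95% interval -0.34 to 0.28). Each pair of ages overlapped. An unadjusted p of 0.05 in 24 against 12 months was not reached when only annotated isoforms or all class codes were summed, or without any 1 of mice 17, 19, 32, 33 and 35.

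Of the box C/D genes, none was called in any contrast. Fbl was 7.67, 4.85, 5.62, 8.58 and 5.55 FPKM at 3 months, 3.99, 5.0, 4.88, 11.3 and 8.60 at 12 months, and 3.48, 8.07, 9.78, 8.72 and 11.9 at 24 months. Its 24-month-old mice held both the lowest and the highest value. The log2 difference was 0.28 at 24 against 3 months (95% interval -0.33 to 0.89, limma adjusted p = 0.665) and 0.28 at 24 against 12 months (95% interval -0.46 to 1.02). At 12 against 3 months it was near 0 with an interval of -0.58 to 0.57. Without mouse 31, its lowest value, the difference of 24 against 3 months was 0.52 (limma unadjusted p = 0.0139, adjusted p = 0.223). Mouse 31 held the value most against this difference. The smaller p follows from leaving that value out and is no support for a call.

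Nop56 was 5.39, 4.30, 4.96, 4.41 and 4.83 FPKM at 3 months, 5.93, 4.18, 3.72, 4.47 and 6.76 at 12 months, and 6.25, 5.82, 4.18, 3.63 and 4.72 at 24 months. Its means, 4.78, 5.01 and 4.92 FPKM, were the closest together of the 7 genes. The SD was 0.439 at 3 months, 1.28 at 12 months and 1.10 at 24 months. All 3 log2 differences were within 0.04 of 0, with limma adjusted p from 0.921 to 0.988.

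Nop58 was 5.03, 7.54, 7.32, 3.42 and 5.21 FPKM at 3 months, 2.81, 8.49, 4.87, 6.84 and 3.16 at 12 months, and 2.90, 4.0, 4.57, 4.49 and 5.04 at 24 months. The ages overlapped, and the 12-month-old mice were spread the most. The log2 difference was -0.34 at 24 against 3 months (95% interval -0.78 to 0.09, limma adjusted p = 0.47), -0.15 at 12 against 3 months (95% interval -0.79 to 0.49) and -0.19 at 24 against 12 months (95% interval -0.76 to 0.39).

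Over all tested members, 0 of 6 passed an adjusted p at 12 against 3 months, 0 of 7 at 24 against 3 months and 0 of 6 at 24 against 12 months; Nop10 was left out of the counts with 12-month-old mice. limma called 0.25%, 1.22% and 0.0031% of all genes in these contrasts. At an unadjusted p under 0.05, no member was higher or lower at 12 against 3 months, where 11.4% of all genes were higher and 2.9% lower. At 24 against 3 months, 1 of 7 was lower (Nop10) and none was higher, against 3.47% and 11.4% of all genes. At 24 against 12 months, 1 of 6 was higher (Dkc1) and none was lower, against 3.07% and 3.36%. The ages did not overlap in 1 of 7 members at 24 against 3 months (Nop10), where 4.73% of all genes did not overlap. No tested member was without overlap at 12 against 3 months (4.11% of all genes) or 24 against 12 months (1.07%). The contrast of 24 against 3 months reuses the 3-month-old mice on which Nop10 was noted. Nop10 in its counts is therefore no independent support. The median log2 difference of the tested members was -0.01, 0.02 and 0.05 in the 3 contrasts in that order, and that of all genes was 0.02, 0.02 and -0.00. The higher share among all genes depended on the scaling. At 12 against 3 months, 3620 genes were higher and 917 lower at an unadjusted p, but 2287 and 1949 after each mouse was scaled by its median ratio. At 24 against 3 months, these were 3624 and 1101, but 2590 and 2021. At 24 against 12 months, they were 990 and 1085, 1074 and 1024 with median ratio scaling, but 1422 and 726 in TPM (FPKM rescaled to the same sum in each mouse). In TPM, they were 3045 and 1163 at 12 against 3 months and 3838 and 1011 at 24 against 3 months. The excess of higher genes in these 2 contrasts was thus still present in TPM.

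**Figure D2:**
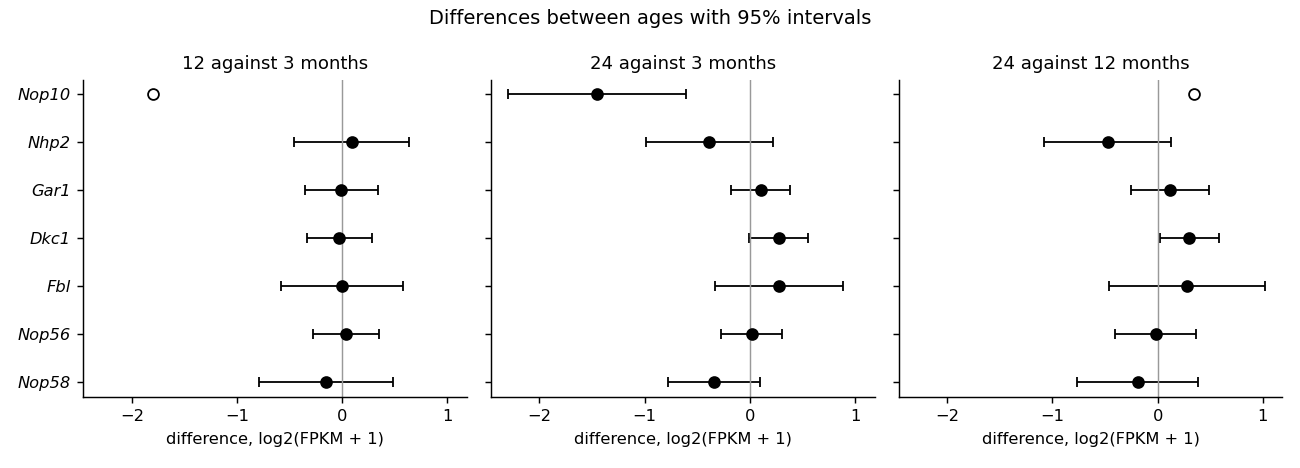
Difference of the means of log2(FPKM + 1) between ages (x axis) for the 7 genes (y axis) in the 3 contrasts, with 95% intervals from limma; open points without an interval are the contrasts that chose Nop10. Nop10 at 24 against 3 months is the interval farthest from 0, and that of Dkc1 at 24 against 12 months starts at 0.02.

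FPKM is a value per length, so the levels of different genes can be set side by side. At 3 months, the order of the means was Nop10 (11.2), Nhp2 (8.44), Dkc1 (7.05), Fbl (6.45), Nop58 (5.70), Nop56 (4.78) and Gar1 (2.20). Of the neighbours in this order, only Nop56 and Gar1 had ranges over the mice that did not overlap. At 12 months, it was Nhp2 (9.06), Dkc1 (6.89), Fbl (6.75), Nop58 (5.23), Nop56 (5.01), Nop10 (2.45) and Gar1 (2.22), and only Nop56 and Nop10 did not overlap. At 24 months, it was Dkc1 (8.69), Fbl (8.40), Nhp2 (6.32), Nop56 (4.92), Nop58 (4.20), Nop10 (3.99) and Gar1 (2.46), and each neighbour overlapped the next. Within single mice, Nop10 had rank 1 or 2 of the 7 genes in each 3-month-old mouse and rank 5 to 7 in each 12-month-old mouse. It had rank 7 in mice 31, 32 and 33 and rank 3 in mice 34 and 35.

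The RNA values of the box H/ACA core were also summed over its 4 genes, and no protein or particle was measured. Nop10 is part of this sum, so the sum and the share of Nop10 in it move with Nop10. The 4 genes summed to 28.9 ± 3.66 FPKM (SD, n = 5) at 3 months, 20.6 ± 3.12 at 12 months and 21.5 ± 3.42 at 24 months. Nop10 made up 31.8, 51.6, 37.1, 34 and 37.7% of that sum in mice 5 to 9. It made up 15.3, 14.2, 7.70, 11.5 and 12.0% in mice 17 to 21, and 8.18, 14.7, 7.43, 29.6 and 28.5% in mice 31 to 35. All 3-month-old mice were above all older ones. Against the geometric mean of Nhp2, Gar1 and Dkc1, Nop10 was between 1.64 and 3.42 times as high at 3 months, 0.292 and 0.602 times at 12 months, and 0.279 and 1.52 times at 24 months. These ratios hold the values that chose Nop10 and are given without a test. The box C/D core, in comparison, summed to 16.9 ± 1.05, 17 ± 4.02 and 17.5 ± 3.28 FPKM at 3, 12 and 24 months.

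**Figure D3:**
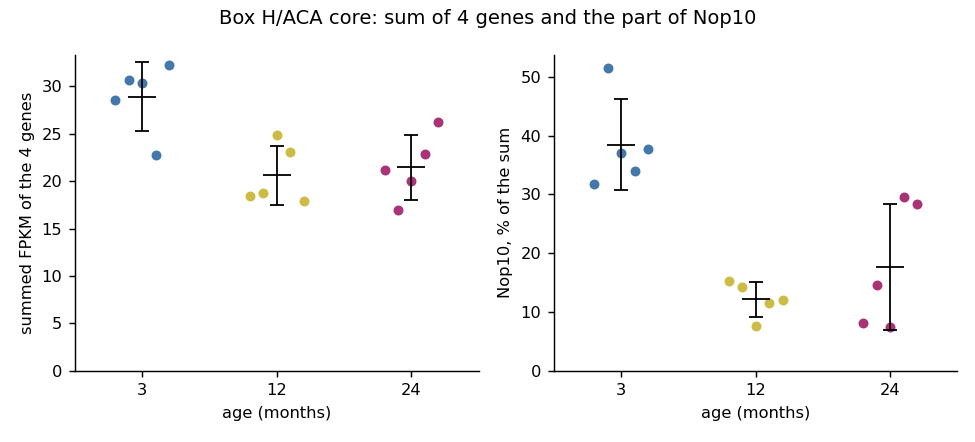
Left, summed FPKM of Nop10, Nhp2, Gar1 and Dkc1 by age; right, the share of Nop10 in that sum (%). Points are single mice, 5 per age, and bars the mean ± SD; the share is between 31.8 and 51.6% at 3 months and between 7.70 and 15.3% at 12 months, and the 24-month-old mice reach from 7.43 to 29.6%.

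The 7 genes differed in how many isoforms carried them. Nop10 was a single row of the table, and Nhp2 came to 98.0% from 1 protein-coding transcript of 4 exons (ENSMUST00000127405, chr11:51619735-51623714). The main coding transcript of Fbl (ENSMUST00000042405, chr7:28169710-28179269) carried 66.4% of its sum, and a retained-intron transcript (ENSMUST00000208259) 26.3%. The sum of Dkc1 held 13 isoforms, 41.1% in the coding transcript of 15 exons (ENSMUST00000033776, chrX:75095854-75109777), 16.2% in the retained-intron transcript ENSMUST00000137286 and 13.2% in the assembled transcript MSTRG.39614.2. Nop56 held 19 isoforms, with 44.8% in ENSMUST00000103198 and 18.9 and 15.6% in the assembled transcripts MSTRG.20739.1 and MSTRG.20739.6. Of Nop58, no isoform reached 25%. Its largest was an annotated target of nonsense-mediated decay (ENSMUST00000189919, 20.7%), followed by the coding transcript ENSMUST00000191142 (19.6%), the assembled transcript MSTRG.730.7 (14.9%) and the retained-intron transcript ENSMUST00000186044 (13.2%). Protein-coding transcripts together made up 100% of the sum in Nop10, 98.0% in Nhp2, 67.9% in Fbl, 55.7% in Gar1, 50.9% in Nop56, 44.3% in Dkc1 and 24.5% in Nop58. Because the authors' software divides reads between overlapping transcripts, these shares are estimates and the isoforms of a gene are not independent.

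**Figure D4:**
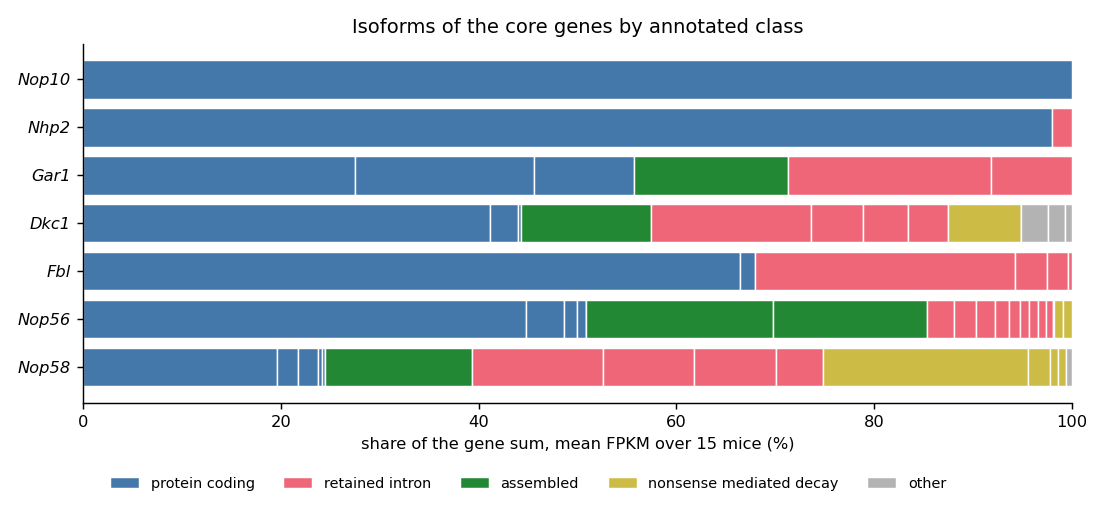
Share of each isoform in the summed FPKM of its gene (x axis, %, means over 15 mice) for the 7 genes (y axis), coloured by annotated class; assembled isoforms are those the authors' assembly added. Nop10 and Nhp2 are almost wholly 1 coding transcript, while coding transcripts are 24.5% of Nop58.

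No isoform of the other members passed an adjusted p over all transcripts. At an unadjusted p under 0.05, 3 of 60 tested isoforms differed at 12 against 3 months, 4 of 60 at 24 against 3 months (Nop10's transcript among them) and 2 of 60 at 24 against 12 months, against 7.46%, 7.9% and 4.47% of all transcripts. Besides Nop10's transcript, those with at least 10% of their gene were from Gar1 and Nop58. The assembled Gar1 transcript MSTRG.23570.3 averaged 0.832 ± 0.498 FPKM at 12 months (0.189 to 1.37), against 0.0347 at 3 months, where 4 of 5 mice were at 0, and 0.201 ± 0.319 at 24 months. Its log2 difference was 0.78 at 12 against 3 months (SE 0.20, limma unadjusted p = 0.00256, adjusted p = 0.423) and -0.60 at 24 against 12 months (adjusted p = 0.838). With a pseudocount of 0.1 in place of 1, these differences were 2.72 and -2.01. The coding Gar1 transcript ENSMUST00000134174 was 0.376 ± 0.132 FPKM at 12 months and 0.0774 at 3 months, with a log2 difference of 0.36 (limma adjusted p = 0.558), or 1.75 with a pseudocount of 0.1. The share of MSTRG.23570.3 in Gar1 was 40.8 ± 22.5% at 12 months and 1.96 ± 4.39% at 3 months (exact permutation test, p = 0.0159, unadjusted). The share of ENSMUST00000134174 was 18 ± 8.0% against 4.38 ± 9.80% (exact permutation p = 0.0397). These were 2 of 18 isoform shares with an exact p under 0.05 in that contrast, where 6.89% of the shares of at least 10% over all genes had one. Shares of 1 gene depend on each other.

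In Nop58, the coding transcript ENSMUST00000191142 was 1.41 ± 0.184 FPKM at 24 months and 0.759 ± 0.568 at 3 months, a log2 difference of 0.51 (SE 0.22, limma adjusted p = 0.607; 1.11 with a pseudocount of 0.1), although the summed gene was lower at 24 months. The assembled transcript MSTRG.730.7 went the other way. It was between 0 and 2.68 FPKM at 12 months and at most 0.137 at 24 months, with a log2 difference of -0.97 at 24 against 12 months (SE 0.38, limma adjusted p = 0.838), or -2.50 with a pseudocount of 0.1. Its share of Nop58 was 0.917 ± 1.21% at 24 months and 12.3 ± 13.2% at 3 months (exact permutation p = 0.0238, unadjusted), which was 1 of 18 shares with an exact p under 0.05 in that contrast, against 7.53% over all genes. At 24 against 12 months, the lowest exact p among the shares was 0.0556, while 4.96% over all genes had one under 0.05.

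Reads from other loci could enter some of these values. Counted as shared stretches of 31 bases, 71.0% of the main Fbl transcript also occurs in the processed pseudogene Gm5812. The shared part was 54.3% with the opposite strand of Tulp4. Gm5812 itself was listed at 1.88 FPKM on average and Tulp4 at 17.3 FPKM. Of the main Nop56 transcript, 34.7% occurs in the processed pseudogene AC122861.1. The values of Fbl and Nop56 are therefore uncertain. Nop10 shares 4.82% with the pseudogene Gm46562 and Nhp2 3.56% with Gm47261. The annotated isoforms with at least 10% of their gene share at most 1.55% with any single other gene in Dkc1, 1.07% in Gar1 and 1.01% in Nop58. Assembled isoforms were not examined for this. No other row of the table overlaps Nop10. The 3′ ends of Nhp2, Dkc1 and Nop56 overlap Rmnd5b, Mpp1 and Idh3b on the opposite strand, by at most 185 bases. The most abundant overlapping transcript averaged 4.58 FPKM for Rmnd5b, 35.2 for Mpp1 and 83.9 for Idh3b. An assembled antisense transcript of 2592 bases (MSTRG.39616.1) lies inside Dkc1 and averaged 1.84 FPKM. An assembled transcript named Dyrk1b (MSTRG.32376.5, 3.33 FPKM on average) shares 4480 bases of span with Fbl on the same strand. The library kit in the labels keeps the strand, but how strand was set in the counting is not given in the sources used here.

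The genes most like Nop10 over the 15 mice were not snoRNP genes. Among 13445 genes with a mean of at least 1 FPKM, Pearson's r of log2(FPKM + 1) with Nop10 was highest for Atp7a (0.89), a copper-transporting ATPase, followed by Top1 (0.87), DNA topoisomerase I, and by Spink8 (0.86), Klhdc2 (0.85) and Tmem117 (0.85). The points share libraries and ages, and r is a description. Atp7a was 9.64 ± 0.574 FPKM at 3 months, 6.95 ± 0.274 at 12 months and 7.78 ± 1.07 at 24 months. Top1 was 19.4 ± 0.982, 13.8 ± 1.17 and 15 ± 2.97. These genes were picked by their likeness to Nop10 over the same mice, so a like order of the mice follows from the choice. Mice 34 and 35 were the highest 24-month-old mice for Atp7a (8.90 and 8.92 FPKM) and for Top1 (20.2 and 14.8). For Tmem117 the highest was mouse 32 (3.09 FPKM, against 2.84 and 2.94 in mice 34 and 35). The ages differed by a much smaller ratio in Atp7a and Top1 than in Nop10. Of the other members, Nop58 came nearest, at rank 1263 of 13445 with r of 0.40. Fbl had r of 0.02 (rank 4945), Nhp2 0.01 (rank 5028), Dkc1 -0.09 (rank 6338), Nop56 -0.21 (rank 7956) and Gar1 -0.23 (rank 8182).

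**Figure D5:**
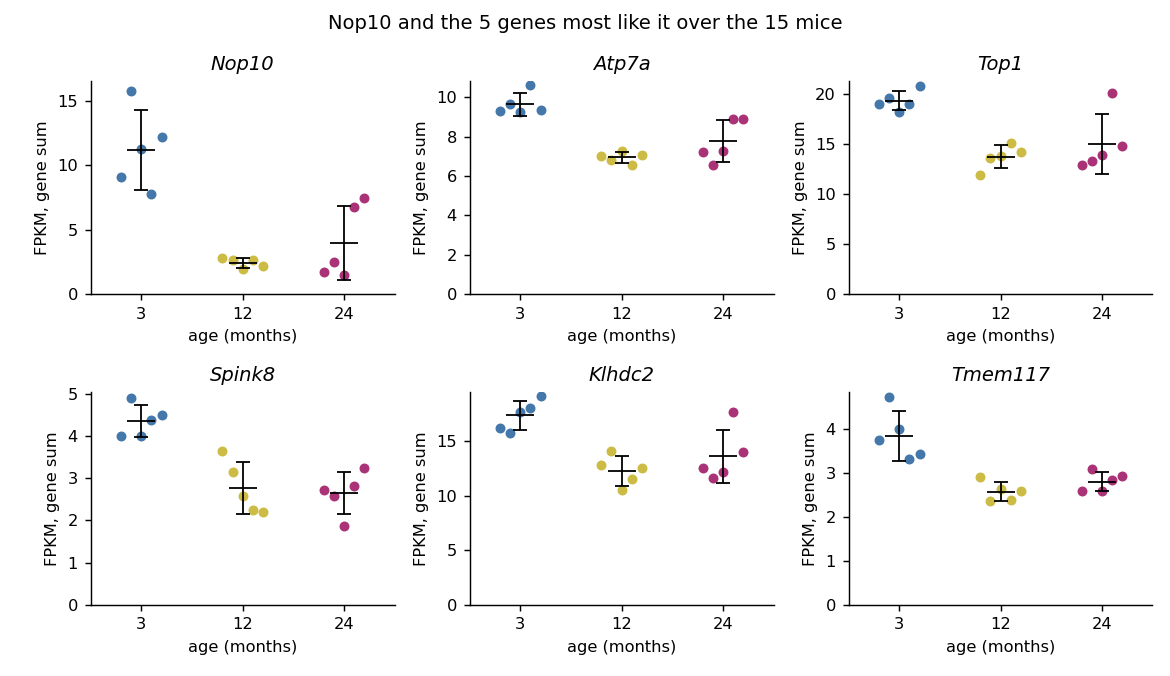
Summed FPKM (y axis, starting at 0, own scale in each panel) of Nop10 and the 5 genes with the highest Pearson's r with it, by age in months (x axis). Points are single mice, 5 per age, and bars the mean ± SD; each gene has its highest mean at 3 months, and the ratio of 3 to 12 months is largest for Nop10 (11.2 against 2.45 FPKM).

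Around the core, 56 genes of the pathway were examined in 5 groups, and none passed an adjusted p in any contrast. At an unadjusted p under 0.05, 9 of 56 were higher and 3 lower at 12 against 3 months, 5 of 56 were higher and 3 lower at 24 against 3 months, and 1 of 55 was higher and 1 lower at 24 against 12 months. Of all genes, 11.4%, 11.4% and 3.07% were higher and 2.9%, 3.47% and 3.36% lower in these contrasts, by the scaling used. The median log2 difference of the 56 genes was 0.11, 0.04 and -0.04 in these contrasts. That of all genes was 0.02, 0.02 and -0.001. Among genes with a mean of at least 1 FPKM at either age, it was 0.08, 0.06 and -0.02. Of these genes, 1933 of 13858 were higher and 656 lower at 12 against 3 months. At 24 against 3 months, 1809 of 13884 were higher and 852 lower.

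Of 14 partner and assembly factors, Rpap3, a subunit of the R2TP chaperone that assembles box C/D particles, had the smallest p. It was 6.27 ± 0.409 FPKM at 12 months (5.98 to 6.98) and 4.17 ± 0.593 at 3 months (3.45 to 5.07), so the ages did not overlap. The log2 difference was 0.50 (SE 0.09, limma unadjusted p = 0.000282, adjusted p = 0.0646). It was 0.34 at 24 against 3 months (limma adjusted p = 0.121). With all 15 mice in 1 fit, the adjusted p of 12 against 3 months was 0.0214. In this group, 2 of 14 were higher and none lower at 12 against 3 months, and 1 of 14 was higher at 24 against 3 months. In each of these contrasts 11.4% of all genes were higher. Snu13, which binds box C/D RNA first, was 4.70 ± 0.961 FPKM at 12 months and 6.36 ± 1.88 at 3 months (limma adjusted p = 0.421). Pih1d1, another R2TP subunit, was 5.51 ± 1.45 FPKM at 24 months and 6.42 ± 1.49 at 3 months. Shq1, the chaperone of dyskerin, was 1.20 ± 0.147 FPKM at 24 months and 0.861 ± 0.251 at 12 months (limma unadjusted p = 0.0536).

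Of 5 telomerase and Cajal body genes, 2 were higher at 12 against 3 months, where 11.4% of all genes were. Smn1, the survival motor neuron gene, was 13.9 ± 3.87 FPKM at 12 months, 9.29 ± 1.29 at 3 months and 10.2 ± 0.692 at 24 months. Its log2 difference was 0.50 at 12 against 3 months (limma adjusted p = 0.221) and -0.37 at 24 against 12 months (limma adjusted p = 0.755). Terc, the RNA of telomerase and itself an H/ACA RNA, was listed at 0 or at most 0.489 FPKM. Wrap53, which brings telomerase to Cajal bodies, was 3.39 ± 0.656 FPKM at 24 months and 3.62 ± 1.02 at 3 months.

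Of 12 other pseudouridine synthases, which need no guide RNA, 3 were higher and 1 lower at 12 against 3 months, and 3 higher and 2 lower at 24 against 3 months. Of all genes, 11.4% were higher and 2.9% lower in the first contrast, and 11.4% and 3.47% in the second. Pusl1 was 2.95 ± 0.400 FPKM at 12 months and 2.0 ± 0.353 at 3 months (log2 difference 0.40, limma adjusted p = 0.165). Pus10 was 6.67 ± 0.546 FPKM at 24 months and 5.45 ± 0.446 at 3 months (log2 difference 0.25, limma adjusted p = 0.153). Pus3 was lower at both older ages, with 1.0 ± 0.257 FPKM at 3 months, 0.648 ± 0.177 at 12 months and 0.645 ± 0.0934 at 24 months. Its log2 differences from 3 months were -0.28 and -0.27 (limma adjusted p = 0.334 and 0.268). Trub2 was 6.66 ± 1.69 FPKM at 24 months and 8.53 ± 1.36 at 12 months (limma adjusted p = 0.806).

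Of 20 small-subunit processome and nucleolar factors, 2 were higher and 2 lower at 12 against 3 months, and 1 higher and 1 lower at 24 against 3 months. The shares of all genes were 11.4% and 2.9% in the first contrast and 11.4% and 3.47% in the second. Ncl (nucleolin), an abundant nucleolar protein, was 9.21 ± 1.56 FPKM at 3 months, 13.9 ± 4.03 at 12 months and 14.0 ± 2.87 at 24 months. Its log2 differences from 3 months were 0.52 and 0.54 (limma adjusted p = 0.243 and 0.154). Without mouse 32, that of 24 against 3 months was 0.68 with a limma adjusted p of 0.0398. This was the largest difference among the fits without 1 mouse, so it is no support for a call. Utp15 was 3.82 ± 0.511, 2.39 ± 0.810 and 4.30 ± 0.832 FPKM at the 3 ages, with a log2 difference of -0.54 at 12 against 3 months (limma adjusted p = 0.183) and 0.66 at 24 against 12 months (limma adjusted p = 0.667). Utp4 was 10.1 ± 1.32 FPKM at 3 months and 8.24 ± 0.859 at 24 months (log2 difference -0.27, limma adjusted p = 0.248). Nop16 was 3.81 ± 1.38 FPKM at 24 months and 4.65 ± 0.641 at 12 months (limma adjusted p = 0.82). Of the 5 snoRNA processing genes, none had an unadjusted p under 0.05. Phax, the export adaptor, was 4.35 ± 0.428, 4.94 ± 0.741 and 3.79 ± 0.937 FPKM at 3, 12 and 24 months, Parn, the nuclease that trims the ends of H/ACA RNA, was 6.20 ± 0.976 at 3 months and 6.65 ± 0.258 at 24 months, and Tgs1, which methylates the cap, was 4.55 ± 0.637 at 3 months and 4.24 ± 0.561 at 12 months.

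Guide RNAs named in the table were few. They carry no poly(A) tail, and the sources differ on whether poly(A) RNA was selected. At an unadjusted p under 0.05, none of 11 Snora genes was higher or lower at 12 against 3 months and 1 was higher at 24 against 3 months. Of 25 Snord genes, 1 was higher and 1 lower at 12 against 3 months, and 1 of 26 was higher and 1 lower at 24 against 3 months. Of all genes, 11.4% were higher and 2.9% lower at 12 against 3 months, and 11.4% and 3.47% at 24 against 3 months. The Scarna genes, guides of the Cajal body, had 1 of 7 lower at 12 against 3 months and 1 of 6 at 24 against 3 months, which was Scarna10 both times. Scarna10 was 16.4, 0, 18.2, 12.3 and 23.5 FPKM in mice 5 to 9, was listed at 0 in mice 17, 18, 19 and 21 with 17.5 in mouse 20, and was at most 0.476 in mice 31 to 35. Each library was thus either at most 0.476 or at least 12.3 FPKM. Its log2 difference at 24 against 3 months was -3.14 (SE 0.78, limma adjusted p = 0.0923), and without mouse 6 it was -3.98 with an adjusted p of 0.000281. Snord17 was 31.6, 88.2, 51.1, 53.1 and 77.5 FPKM in mice 5 to 9, 53.7, 42.5, 40.6, 0 and 45.1 in mice 17 to 21, and 1.89, 60.9, 0, 1.22 and 0 in mice 31 to 35. Its log2 difference at 24 against 3 months was -4.13 (SE 1.03, limma adjusted p = 0.0932), and without mouse 32 it was -5.18 with an adjusted p of 0.00377. Snord88c went the other way, with 0.224, 0.343, 0.592, 0.0535 and 0.124 FPKM in mice 5 to 9 and 0.724, 0.588, 0.623, 1.13 and 0.980 in mice 31 to 35, and mouse 7 overlapped the older group. Its log2 difference at 24 against 3 months was 0.52 (SE 0.13, limma adjusted p = 0.0946), or 1.46 with a pseudocount of 0.1. Snord15a was listed at 0 in mice 6, 8 and 9, with 0.208 FPKM in mouse 5 and 0.583 in mouse 7, and was between 0.549 and 0.702 FPKM at 12 months. Its log2 difference at 12 against 3 months was 0.51 (SE 0.13, limma adjusted p = 0.116), or 1.97 with a pseudocount of 0.1, and without mouse 7 it was 0.63 with an adjusted p of 0.0367. Snora20, higher at 24 against 3 months, and Snord23, lower at 12 against 3 months, averaged at most 0.642 and 0.108 FPKM at any age. These guide RNAs were named after their values were seen. Mouse 6 for Scarna10, mouse 32 for Snord17 and mouse 7 for Snord15a held the value most against the difference. The smaller adjusted p without each of them follows from leaving that value out and is no support for a call.

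Of 87 cytosolic ribosomal protein genes, 24 were higher and 2 lower at 12 against 3 months at an unadjusted p, where 11.4% of all genes were higher and 2.9% lower; the higher share of all genes depended on the scaling, as given above. At 24 against 3 months, 2 were higher and 4 lower of 86, against 11.4% and 3.47% of all genes. None passed an adjusted p.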

How the data were processed

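Kidney RNA of 15 mice was analysed from the authors' tables. Per the paper, Cutadapt removed adapters, Bowtie2 and HISAT2 aligned the reads to GRCm38 with the annotation of Ensembl 88, and StringTie built transcripts that were merged over the samples. The submitters' processing notes name TopHat and TopHat2. For library preparation the labels describe removal of ribosomal RNA, while the paper describes oligo(dT) beads and speaks of pooled RNA. RNAs without a poly(A) tail would be measured differently by each. Samples of 1 age were taken as separate mice, and p-values measure the spread between them.

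The deposited FPKM and the deposited mean coverage per transcript are StringTie estimates by the authors. The ratio of coverage to FPKM gave each library's aligned bases. No read numbers were used for the linear transcripts, so no counting interval was computed, and the spread between mice gives the precision. Circular RNAs have a deposited table of their own with estimated counts and FPKM by the authors, of which only the estimated counts of pathway genes are given, as values. Isoforms of class code =, c, j or o were summed per gene name. 58 of 58 annotated member isoforms had the same coordinates in GENCODE M21, from which the sequences were taken.

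Genes above 0 in at least 1 mouse of the ages compared (31637, 31755 and 32282 in the 3 contrasts) were tested with limma 3.58.1 (lmFit, eBayes with trend) in R 4.3.3 on log2(FPKM + 1), which understates changes of low genes, using the mice of both ages, with Benjamini-Hochberg adjustment over all genes; transcripts likewise. The count tools that the paper names need counts. Exact permutation tests were 2-sided over all assignments of the 10 mice. The fit was tested on simulated data. The members and lists were chosen with earlier results of these data known. Named were all members, their isoforms of at least 10%, per pathway list the gene with the smallest p in each direction of each contrast, and the 5 genes most like Nop10. Alternatives were a pseudocount of 0.1, a mean FPKM of at least 1, TPM, median ratio scaling, all 15 mice in 1 fit, a robust prior, other class codes and each mouse left out.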

Additional observations from a re-analysis of the deposited data

Results flagged for a closer look

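Of 75 groups of 5 mice examined (the 7 genes and 18 isoforms at 3 ages), 6 held a mouse that stood apart by Dixon's ratio of the gap to the range, and chance gives about 1 in 20 groups. All 6 were isoforms of Gar1 or Nop58, and none was a gene sum. The Gar1 coding transcript ENSMUST00000029643 was 2.45 FPKM in mouse 19 and at most 0.162 in the other 12-month-old mice. The Gar1 retained-intron transcript ENSMUST00000143545 was 0.27 FPKM in mouse 17 and at most 0.00547 in the other 12-month-old mice. Mouse 9 was the only 3-month-old mouse above 0 for both ENSMUST00000134174 (0.387 FPKM) and MSTRG.23570.3 (0.173 FPKM). The Gar1 coding transcript ENSMUST00000149071 was 1.17 FPKM in mouse 32 and between 0.159 and 0.354 in the other 24-month-old mice. The Nop58 retained-intron transcript ENSMUST00000186044 was 0.292 FPKM in mouse 17 and between 0.686 and 0.763 in the other 12-month-old mice.

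Among 11929 circular RNAs in the other deposited table, none came from the 7 genes, while 16 came from 11 of the 56 pathway genes. The most abundant was circRNA4590 of Ncl, with a median estimated count of 1085 over the 15 mice (648.1 to 2464). Shq1 gave 4 circular RNAs.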

How the results depend on the processing

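The sign of the Nop10 difference held under every alternative run, from -2.12 to -1.67 at 12 against 3 months, from -1.73 to -1.25 at 24 against 3 months and from 0.10 to 0.55 at 24 against 12 months. With all 15 mice in 1 fit, 1 of 7 members (Nop10) passed an adjusted p at 24 against 3 months in place of none. The spread of that fit includes the 12-month-old mice on which Nop10 was chosen, so this is no independent call. In the same fit, 1 pathway gene (Rpap3) passed at 12 against 3 months in place of none. Of all 33058 genes, 663 passed at 24 against 3 months and 299 at 12 against 3 months in that fit. At an unadjusted p, 2 members passed at 24 against 3 months in TPM (Nop10 and Dkc1), where 4849 of 31755 genes did. At 24 against 12 months, 0 members passed with annotated isoforms only (1843 of 32217 genes) or with all class codes (2065 of 32372). Without 1 mouse, the number of members at an unadjusted p was 1 to 3 at 24 against 3 months (3 without mouse 31, with Dkc1 and Fbl; 2 without mouse 5 or 9, with Dkc1, and without mouse 8, with Nop58) and 0 to 1 at 24 against 12 months. Of all genes, 4143 to 4837 passed an unadjusted p at 24 against 3 months in these fits, and 1707 to 2463 at 24 against 12 months. Mouse 31 held the value of Fbl most against the difference, so its absence is no support for a call. Without 1 mouse, 0 to 1 pathway genes passed an adjusted p at 24 against 3 months, where 109 to 411 of all genes did. At an unadjusted p at 24 against 12 months, 1 to 6 pathway genes passed without 1 mouse and 6 with all 15 mice in 1 fit. Of all 33058 genes, 2089 passed in the latter fit. Over all genes, the adjusted calls numbered 79 at 12 against 3 months (12 to 299 under the alternatives), 386 at 24 against 3 months (109 to 663) and 1 at 24 against 12 months (0 to 7). Differences near 0 changed sign. With annotated isoforms only, Nop56 was -0.0445 at 12 against 3 months and -0.115 at 24 against 3 months, and Nop58 0.0994 at 24 against 12 months. With median ratio scaling, Nhp2 was -0.032 and Nop56 -0.0779 at 12 against 3 months, and Nop56 -0.0773 at 24 against 3 months. In TPM, Nop56 was -0.0070 at 12 against 3 months and 0.0438 at 24 against 12 months. Without 1 mouse, the ranges at 12 against 3 months were -0.041 to 0.21 for Nhp2, -0.114 to 0.0869 for Gar1, -0.11 to 0.0676 for Dkc1, -0.191 to 0.133 for Fbl, -0.0622 to 0.117 for Nop56 and -0.327 to 0.00273 for Nop58, and for Nop56 -0.0600 to 0.102 at 24 against 3 months and -0.0985 to 0.0803 at 24 against 12 months. With annotated isoforms only, Gar1 was -0.47 at 12 against 3 months and 0.48 at 24 against 12 months. With a pseudocount of 0.1, Pus3 was -0.56 and -0.54 at 12 and 24 against 3 months. Pus10 was 0.15 with median ratio scaling and Utp4 -0.56 with annotated isoforms only, both at 24 against 3 months. The cause of these changes was not tested. Of 49 isoform differences that missed an unadjusted p, 22 changed sign without 1 mouse, 9 under another setting, and none passed an adjusted p. The filter on mean FPKM and the class codes were not run for isoforms. The alternatives for pathway genes and guide RNAs were chosen after seeing the data. No paired analysis was possible because the ages share no mouse numbers.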
